A study of Homo sapiens with 2 samples.

Results

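The genes described here are 10 of the 19198 genes measured in 2 mRNA libraries, chosen by name as pluripotency factors and as oncofetal genes linked to LIN28 and the let-7 microRNAs. They are SOX2, POU5F1, NANOG, KLF4, LIN28A, LIN28B, IGF2BP1, IGF2BP2, IGF2BP3 and HMGA2. The choice was made with their measured levels in these libraries known, so their levels and fold changes are given as a description, without a test. All 10 names had a row in the files, 9 reached the minimum of 10 reads in a library, and NANOG was listed at 0 in both.

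SOX2, POU5F1 (OCT4), NANOG and KLF4 are transcription factors of the pluripotency network, in which SOX2 and POU5F1 bind DNA together and KLF4 is a zinc finger factor that acts beside them. LIN28A and LIN28B are RNA-binding proteins that block the maturation of let-7, and let-7 in turn represses mRNAs that hold matches to its seed, LIN28B and HMGA2 among them. IGF2BP1, IGF2BP2 and IGF2BP3 bind and stabilise mRNAs in the cytoplasm, HMGA2 is an architectural chromatin protein, and most of these genes are active in the embryo, silent in most adult tissues and switched on again in some tumours.

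The libraries were labelled as A549, a human lung adenocarcinoma cell line, a label that most of the markers described below went against. The A549-NICD1 library was labelled as overexpressing NICD1, the intracellular domain of the receptor NOTCH1, whose open reading frame the study placed in a pSin-EF2 lentiviral vector. The A549-Vector library was labelled as the vector control. Both were made from polyA RNA. With 1 library a condition, the differences below could not be checked in replicates and none carries a p-value. Stable lines were made by viral infection and antibiotic selection, and the number of clones is not given in the sources used here. In bulk RNA, fewer cells that express a gene and less of its RNA per cell cannot be told apart.

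The depths recovered from the values were 48528434 reads for A549-NICD1 and 48602848 for A549-Vector. Levels are in FPKM, which are fragments per length of the gene and per depth of the library. NOTCH1 was at 5.40 in A549-Vector and at 2865 in A549-NICD1, and the Notch target HES5 was at 7.78 and 115 FPKM. The Notch targets HES1 (32.7 and 37.7 FPKM), HEY1 (45.2 and 61.8 FPKM) and NRARP (16.1 and 29.5 FPKM) differed far less. RFC4, the replication factor subunit that the study follows, was at 39.5 and 4075 FPKM, the highest value of all genes in A549-NICD1. The study reports RFC4 as a gene that Notch1 signaling switches on directly, with more RFC4 mRNA when NICD1 is overexpressed. Reads from a gene's own locus and from an introduced copy cannot be told apart in these values, for RFC4 as for NOTCH1. SOX2 and IGF2BP2 lie on chromosome 3 with RFC4, 5.08 and 0.965 megabases away from it. The cell line label was set beside markers, from lists chosen with earlier results of these data known, as a description and not a test. Of 16 genes taken as A549 markers, 11 were under 1 FPKM in both libraries, and KRT7, KRT19, FGA and FGB had a value of 0 in each. ANXA1 (11.1 and 11.4 FPKM), SLC7A11 (6.24 and 6.25 FPKM), CPS1 (1.60 and 1.81 FPKM) and ALDH3A1 (1.45 and 2.01 FPKM) reached 1 FPKM in both. The 16 ranged from 0 to 11.1 FPKM in A549-Vector and from 0 to 11.4 FPKM in A549-NICD1, with a sum of 23.6 FPKM in each. Of 11 markers of HEK293, an embryonic kidney line related to one also cultured in the study, 9 reached 1 FPKM in both libraries, with sums of 306 and 267 FPKM. Most of these markers went against the label in both libraries, which are called here by their labels. The HEK293 markers also differed between the libraries. With log2 ratios of A549-NICD1 over A549-Vector, 9 of the 11 were lower in A549-NICD1, 3 of them (EYA1 -0.89, PAX2 -0.72 and HOXA9 -0.67) by more than 1.5-fold, and the median was -0.31. Their part in the levels and fold changes below was not tested.

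The let-7 family is shown first because 6 of the 10 members carry its seed match. In RefSeq (GRCh38.p14), 9 mature members of the family share the seed GAGGUAG at bases 2 to 8, in capitals below. Shown are let-7a and let-7b as examples of the family, let-7g, which lies within WDR82, and miR-98, which lies within HUWE1, since both of these genes were measured here.
let-7a-5p: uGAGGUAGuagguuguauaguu
let-7b-5p: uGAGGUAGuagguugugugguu
let-7g-5p: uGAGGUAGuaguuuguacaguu
miR-98-5p: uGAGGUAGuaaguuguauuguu

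The reverse complement of this seed, CTACCTC, was searched on the transcript strand in the 3′ UTR of 1 GENCODE 29 transcript a gene (GRCh38). LIN28B, IGF2BP1 and HMGA2 each held 4 matches, LIN28A, IGF2BP2 and IGF2BP3 each held 1, and SOX2, POU5F1, NANOG and KLF4 held none. Among 14598 genes that had a 3′ UTR and reached 10 reads in a library, 9.60% held 1 match or more, 0.206% held 3 or more and 12 held 4 or more. Matches are in capitals in the sites below, which lie in 3′ UTR exons, and an a after the capitals extends the match by the base opposite the first base of let-7. A match is a description of the letters and not a measured binding site.
LIN28B, chr6:105078806-105078835, plus strand: tcctttacccggttgcaaagtCTACCTCat
LIN28B, chr6:105081233-105081262, plus strand: attatgtactgatgatagtaaCTACCTCtg
LIN28B, chr6:105081415-105081444, plus strand: tactctgtttacagcaaaaggCTACCTCat
LIN28B, chr6:105082854-105082883, plus strand: gcttgaaaatgatggtgttgaCTACCTCtt
HMGA2, chr12:65963293-65963321, plus strand: ggggcgccaacgttcgatttCTACCTCag
HMGA2, chr12:65964527-65964556, plus strand: atatatccccactactcaataCTACCTCtg
HMGA2, chr12:65964939-65964968, plus strand: gactaattgacttgcaaagacCTACCTCca
HMGA2, chr12:65965792-65965821, plus strand: ttgtacaatcaaaacacactaCTACCTCtt
IGF2BP1, chr17:49051055-49051084, plus strand: caatgctgtgtgcgaagtaaaCTACCTCaa
IGF2BP1, chr17:49053692-49053721, plus strand: gggaaccagcagtgctagtaaCTACCTCac
IGF2BP1, chr17:49054346-49054375, plus strand: ctacgagtataaatggattaaCTACCTCaa
IGF2BP1, chr17:49054991-49055020, plus strand: cccatttcacttttgttttatCTACCTCtt
IGF2BP2, chr3:185644219-185644248, minus strand: gagaaaaacacacagaagaagCTACCTCag
IGF2BP3, chr7:23311794-23311823, minus strand: taaacgtgcatttttactcaaCTACCTCag
LIN28A, chr1:26427342-26427371, plus strand: tggagtgcacagcctattgaaCTACCTCat

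Levels of the members are described in ranges cut at 2 and 20 FPKM. SOX2, LIN28B, IGF2BP1, IGF2BP2, IGF2BP3 and HMGA2, 6 genes in all, were above 20 FPKM in both libraries, against a median over all genes of 4.71 FPKM (A549-Vector) and 4.37 FPKM (A549-NICD1). POU5F1, LIN28A and NANOG were under 2 FPKM in both, and KLF4 lay between. In A549-Vector KLF4, at 2.42 FPKM, was close to POU5F1, at 1.51 FPKM. In A549-Vector the order from the highest level was IGF2BP1, HMGA2, SOX2, IGF2BP2, LIN28B, IGF2BP3, KLF4, POU5F1, LIN28A and NANOG. In A549-NICD1 the order was the same but for IGF2BP2 and SOX2, which changed places at 34.3 and 33.9 FPKM. Their 95% counting intervals there, 33.2 to 35.5 and 32.9 to 35.0 FPKM, overlapped, so these neighbours were not separated. In A549-Vector the intervals of LIN28B, 31.2 to 32.6 FPKM, and IGF2BP3, 29.5 to 31.0 FPKM, did not overlap.

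**Figure D1:**
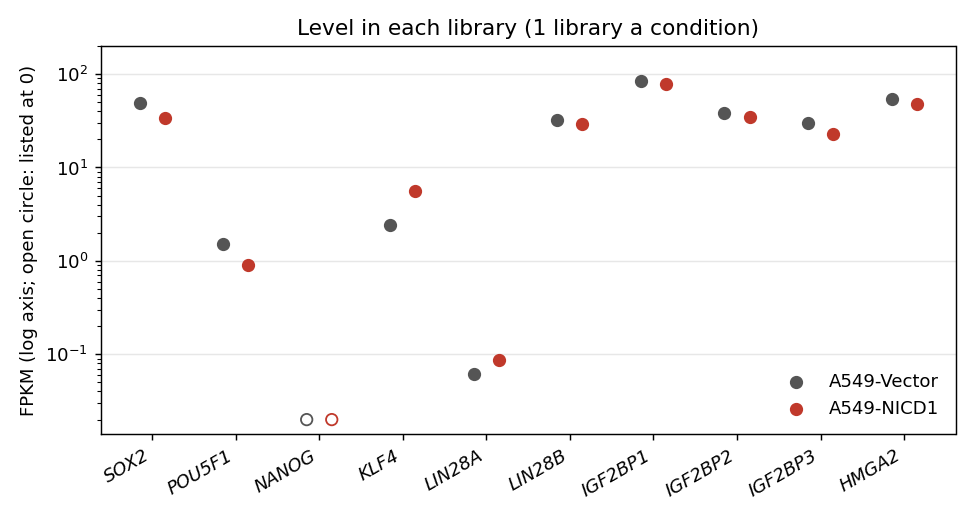
Level of each of the 10 genes in FPKM (log axis) in A549-Vector (grey) and A549-NICD1 (red), 1 library a condition. Open circles mark NANOG, listed at 0 in both libraries. IGF2BP1 was highest in both, and KLF4 was the member with the widest visible gap upwards in A549-NICD1.

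Fold changes are log2 ratios of A549-NICD1 over A549-Vector, on reads plus 0.5 after scaling, with 95% intervals that cover counting error only. Of the 9 members with at least 10 reads in a library, 1, KLF4, was higher in A549-NICD1 by more than 2-fold, where 3.92% of the 15104 genes tested were (6.94% by more than 1.5-fold), and 0 were lower by more than 2-fold, where 2.04% were. POU5F1 alone was lower by more than 1.5-fold, against 5.87% of all genes, and the 7 others lay within 1.5-fold. The interval lay above 0 for 1 member and below 0 for 7, against 26.8% and 27.6% of all genes, and it held 0 for LIN28A. Altogether 7 of the 9 were lower in A549-NICD1 and 2 higher, against 50.6% and 49.4% of all genes, and beside 9 of 11 HEK293 markers lower. The median of the 9 was -0.12, beside -0.0036 for all genes tested. These values belong to the contrast in which the genes were chosen, so nothing is read from the shares.

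**Figure D2:**
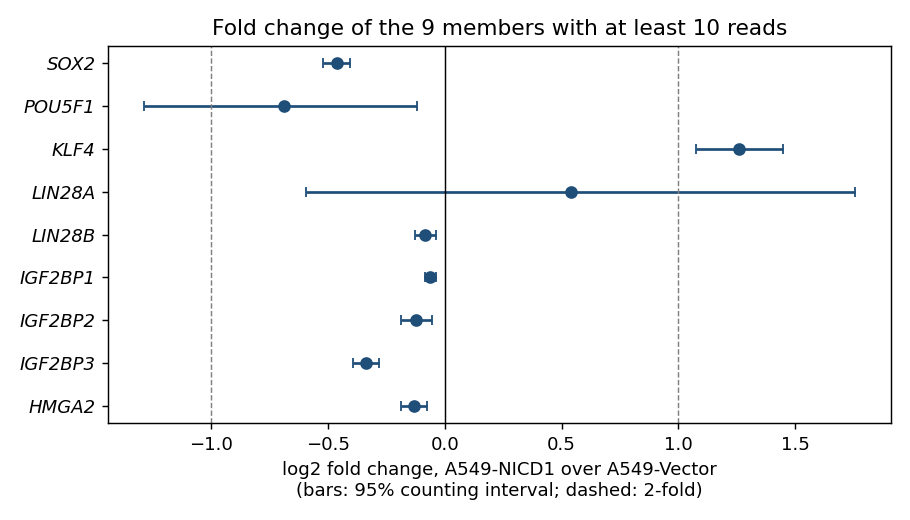
Log2 fold change of A549-NICD1 over A549-Vector for the 9 members with at least 10 reads, with bars for the 95% counting interval and dashed lines at 2-fold. The interval of KLF4 lies wholly beyond 2-fold, from 1.08 to 1.45, while those of LIN28B, IGF2BP1, IGF2BP2 and HMGA2 lie between -0.19 and -0.040.

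SOX2, which also maintains neural and airway progenitors, was at 48.6 FPKM (5931 reads) in A549-Vector and 33.9 FPKM (4139 reads) in A549-NICD1. It is a gene on the plus strand at chr3:181711924-181714436, and it lies within the noncoding gene SOX2-OT on the same strand, which had no row of its own in the files used here. SOX2 was above 91.7% of all genes in A549-Vector and above 87.1% in A549-NICD1. Its log2 fold change was -0.46 (95% counting interval -0.52 to -0.41), a level in A549-NICD1 of 0.725 times that in A549-Vector. Among 13101 genes with at least 100 reads summed, 5.94% were lower by more than SOX2, and 0.58% were lower by more than 2-fold.

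POU5F1, the POU-domain partner of SOX2 in embryonic stem cells, was far below it in each library. It was at 1.51 FPKM (69 reads) in A549-Vector and 0.897 FPKM (41 reads) in A549-NICD1, with a log2 fold change of -0.69 (-1.29 to -0.12). Of the 13101 genes with at least 100 reads summed, 2.3% were lower by more than POU5F1. SOX2 was at 32.2 times the level of POU5F1 in A549-Vector and at 37.8 times in A549-NICD1. POU5F1 reads are uncertain, since 13.6% of 100-base windows along its longest transcript were also found in POU5F1B, POU5F1P3 or POU5F1P4. Of these, POU5F1B had 5 reads in A549-Vector and 1 in A549-NICD1. The gene, on the minus strand at chr6:31164337-31180731, also overlaps TCF19 on the other strand, which was at 29.4 and 25.4 FPKM. The study's supplement calls the sequencing strand-specific, but whether the counting used the strand is not given in the sources used here.

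NANOG, a homeodomain factor that holds embryonic stem cells in the undifferentiated state, was listed at 0 in both libraries. At these depths a count of 0 allows up to 3 reads, or 0.0119 FPKM over its longest GENCODE transcript of 5183 bases, in each library. Of 100-base windows along NANOG, 8.82% were shared with other genes, pseudogenes such as NANOGP1 and NANOGP8 among them. NANOG lies on the plus strand at chr12:7787794-7799141.

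KLF4, which acts in reprogramming and in epithelial differentiation, was at 2.42 FPKM (345 reads) in A549-Vector and 5.58 FPKM (795 reads) in A549-NICD1. It was the only member above 2-fold, with a log2 fold change of 1.26 (1.08 to 1.45), or 2.39-fold. With at least 100 reads summed, 1.11% of 13101 genes were above 2-fold and 0.595% were higher by more than KLF4. KLF4 stood above 42.8% of all genes in A549-Vector and above 53.5% in A549-NICD1, so even the higher value was near the middle of the range. The excess of SOX2 over KLF4 was 20.1 times in A549-Vector and 6.08 times in A549-NICD1. None of 55 windows of 100 bases along KLF4, at chr9:107484852-107490482 on the minus strand, was found in a transcript of another gene.

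**Figure D3:**
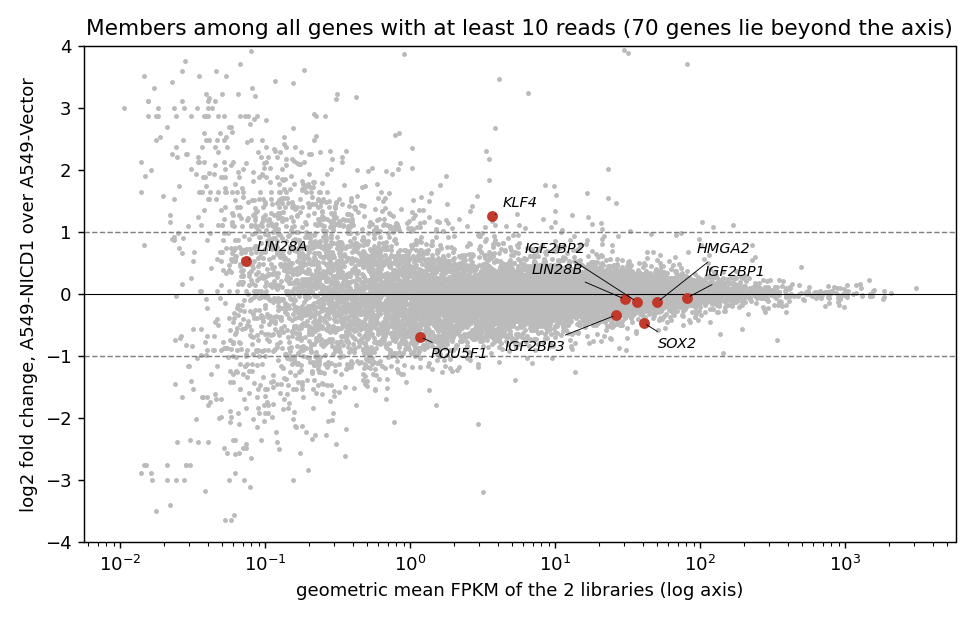
Log2 fold change against the geometric mean FPKM of both libraries (log axis) for the 15104 genes that reached 10 reads in a library (grey) and the 9 members (red), with dashed lines at 2-fold and 70 genes beyond the vertical axis. The grey cloud widens to the left, where reads are few and LIN28A lies. KLF4 lies towards the upper edge of the cloud at its level, with DUSP8 beside it and AFAP1L2 (log2 fold change 2.17) above it. SOX2 and IGF2BP3 lie towards the lower edge of the cloud.

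The paralogs LIN28A and LIN28B differed widely in level. LIN28B was at 31.9 FPKM (8534 reads) in A549-Vector and 29.0 FPKM (7744 reads) in A549-NICD1, and LIN28A at 0.0614 FPKM (12 reads) and 0.0871 FPKM (17 reads). LIN28B was thus at 520 times the level of LIN28A in A549-Vector and 333 times in A549-NICD1, ratios that rest on the few LIN28A reads. The log2 fold change of LIN28B was -0.084 (-0.13 to -0.040). That of LIN28A was 0.54 (-0.59 to 1.76), so no difference was detectable at this depth. LIN28B lies on the plus strand at chr6:104936616-105083332 and LIN28A on the plus strand at chr1:26410778-26429722.

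IGF2BP1, IGF2BP2 and IGF2BP3 summed to 153 FPKM and 135 FPKM in A549-Vector and A549-NICD1, of which IGF2BP1 made up 54.9% and 57.5%. IGF2BP1, which binds mRNAs such as those of ACTB and MYC, was the highest of the 10 members, at 84.1 FPKM (34973 reads) in A549-Vector and 77.6 FPKM (32238 reads) in A549-NICD1, with a log2 fold change of -0.062 (-0.083 to -0.040). It was above 96.0% and 95.5% of all genes in these libraries. IGF2BP2, the family member that is also widely present in adult tissues, was at 38.7 FPKM (3891 reads) and 34.3 FPKM (3439 reads), a log2 fold change of -0.12 (-0.19 to -0.056). IGF2BP3, named for its activity in the embryo and in tumours, showed the widest gap of the family, from 30.2 FPKM (6110 reads) in A549-Vector to 23.1 FPKM (4657 reads) in A549-NICD1. Its log2 fold change was -0.34 (-0.39 to -0.28), and its interval overlapped neither that of IGF2BP1 nor that of IGF2BP2. The genes lie at chr17:48997412-49055650 on the plus strand, chr3:185643739-185825056 on the minus strand and chr7:23310209-23470467 on the minus strand. IGF2BP3 overlaps MALSU1 on the other strand, which was at 37.7 and 36.8 FPKM.

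HMGA2, at chr12:65824131-65966295 on the plus strand, was at 53.7 FPKM (5644 reads) in A549-Vector and 47.3 FPKM (4958 reads) in A549-NICD1. Its log2 fold change was -0.13 (-0.19 to -0.076). Its paralog HMGA1, which is active in most dividing cells, was at 299 and 275 FPKM, a log2 fold change of -0.063 (-0.088 to -0.039). HMGA2 was thus at a lower level than HMGA1 in each library, and both were slightly lower in A549-NICD1.

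The members with let-7 matches were set beside all genes with them. In the 13197 genes without a match the median log2 fold change was 0.00046, in 1245 with 1 match -0.030, in 126 with 2 matches -0.061 and in 30 with 3 or more -0.063. These medians differ by little beside the quartiles, which were -0.16 and 0.15 without a match and -0.15 and 0.11 with 3 or more. The genes with 3 or more also had longer 3′ UTRs, with a median of 5692 bases against 942 in those without. Among the 12 genes with 4 matches or more, LIN28B, HMGA2 and IGF2BP1 included, log2 fold changes ran from -0.20 to 0.12, with 9 lower and 3 higher. Among these 12 the gene with the most matches was TRIM71, a let-7 target with 6, at 6.05 and 5.95 FPKM. The genes that hold let-7g and miR-98 within them, WDR82 and HUWE1, had log2 fold changes of -0.15 and -0.20, and mature let-7 was not measured by this polyA method.

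Other genes of these pathways were counted from lists. Of 31 further genes of the pluripotency network in the files, 19 had at least 10 reads in a library, 18 were under 1 FPKM in both libraries and 11 were at 1 FPKM or more in both. Of the 19, 1 was above 2-fold, against 3.92% of all genes tested. None was lower by more than 2-fold, against 2.04%, and the median log2 fold change was 0.016. The gene above 2-fold was MYCN, a MYC family factor, at 0.136 FPKM (17 reads) in A549-Vector and 0.607 FPKM (76 reads) in A549-NICD1, with a log2 fold change of 2.18 (1.44 to 3.07). Those with the highest levels were MYC (77.1 and 81.2 FPKM), the DNA methyltransferase DNMT3B (19.2 and 18.5 FPKM) and the T-box factor TBX3 (17.1 and 17.3 FPKM). ZFP42, DPPA3, L1TD1 and FGF4, like NANOG, were listed at 0 in both.

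Of 20 genes in the files that make, tail or degrade let-7 or act on its precursors, each was at 5.52 FPKM or more in A549-Vector and at 5.74 FPKM or more in A549-NICD1. None was beyond 1.5-fold in either direction, where 6.94% of all genes tested were higher and 5.87% lower. Their log2 fold changes ran from -0.15 to 0.32 with a median of 0.020. The highest in A549-Vector were HNRNPA1 (708 and 655 FPKM), DDX17 (208 and 184 FPKM) and KHSRP (182 and 195 FPKM), all RNA-binding proteins that take part in microRNA processing. MSI1, an RNA-binding protein of neural progenitors that acts with LIN28, was the highest by fold change, at 17.9 and 21.6 FPKM, and was named after its values were seen.

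Of 28 known let-7 targets beside the members, 14 were higher and 14 lower, and the median log2 fold change was 0.0013. MYCN alone was beyond 1.5-fold, where 6.94% of all genes tested were higher and 5.87% lower. HMGA1, MYC and RRM2 (74.7 and 68.2 FPKM), a ribonucleotide reductase subunit, had the highest levels. Of 20 mRNAs known to be bound by IGF2BP proteins and genes of the m6A machinery, 1 was above 2-fold, against 3.92% of all genes. None was lower by more than 2-fold, against 2.04%, and the median was 0.018. The gene above 2-fold was IGF2, the fetal growth factor for whose mRNA the family is named. IGF2 was at 0.726 FPKM (172 reads) in A549-Vector and 1.80 FPKM (425 reads) in A549-NICD1, with a log2 fold change of 1.36 (1.10 to 1.63). The bound mRNAs of ACTB (1373 and 1542 FPKM) and CTNNB1 (142 and 138 FPKM) and the m6A eraser ALKBH5 (107 and 101 FPKM) were at far higher levels.

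Of 13 further oncofetal genes in the files, 8 had at least 10 reads in a library, with a median log2 fold change of -0.11. Of these 8, IGF2 was above 2-fold, against 3.92% of all genes tested, and ALPPL2 lower by more than 2-fold, against 2.04%. ALPPL2, a placental-type alkaline phosphatase with close paralogs, had 25 reads in A549-Vector and 0 in A549-NICD1, so it passed the filter only through A549-Vector. It was at least 8.02-fold lower against a floor of 3 reads with the 25 reads taken as exact, and at least 6.05-fold by its 95% counting interval. With ALPPL2 at either bound the median is the same, since it is the lowest value in each case. The median depends on the filter, at -0.042 when 100 reads summed were required, and it was -0.055 with a pseudocount of 1 FPKM. Over all 13 genes it was 0.056. That is the value scaling gives to genes with 0 reads in both libraries, AFP and CEACAM5 here, and not a measured change. The glypican GPC3 (18.5 and 13.1 FPKM), PLAGL1 (17.1 and 16.0 FPKM) and TPBG (12.4 and 10.6 FPKM) had the highest levels, and AFP and CEACAM5 were listed at 0 in both. Of 16 relatives of the members, 11 had at least 10 reads in a library, and the median was 0.016. None of the 11 was beyond 2-fold, where 3.92% of all genes tested were above and 2.04% below. HMGA1 and YBX1 (283 and 278 FPKM), which has the cold shock domain that LIN28 proteins also carry, were among those with the highest levels. POU3F2, a neural POU factor named after its values were seen, was the lowest by fold change, at 17.9 and 9.38 FPKM with a log2 fold change of -0.88 (-0.96 to -0.80).

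The genes nearest to each member by distance in log2 FPKM over the 2 libraries were listed, as a description over 2 values a gene. Nearest to KLF4 were the phosphatase gene DUSP8 (distance 0.034), the polo-like kinase gene PLK2 (0.063) and TTYH1 (0.14). Nearest to SOX2 were DPM3, ARL6IP5 and NME3, at 0.082 to 0.085, and nearest to POU5F1 were CCNI2, GCSAM and DPP4, at 0.019 to 0.032. Near neighbours were PJA2 and ZNF106 for LIN28B, BAX, RNASEH2A and DNMT1 for IGF2BP1, MPG, WDR33 and MED28 for IGF2BP2 and NDUFA1, GSTK1 and MPI for HMGA2, at 0.0057 to 0.029. GSE1, TMEM203 and HADH were nearest to IGF2BP3, at 0.039 to 0.056, and PTPN7 and PAPOLB to LIN28A, at 0.014 and 0.034.

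RBPJ is the DNA-binding factor through which NICD acts, and its core motif TGGGAA was searched on both strands in RefSeq promoters (GRCh38.p14) that run from 250 bases before to 50 bases after a start. Of 6 members with a promoter in the table, IGF2BP3 held 1 match, starting 43 bases into the transcript, and SOX2, NANOG, KLF4, LIN28B and IGF2BP2 held none. Of all 35116 promoters, 24.0% held it. The longer motif GTGGGAA, also searched, was in 0 of the 6 members, IGF2BP3 included, and in 6.25% of all promoters. No match says only that these letters are not in this window.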

How the data were processed

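PolyA RNA of 1 A549-NICD1 and 1 A549-Vector library was sequenced, and the authors deposited 1 value per gene and library, read here as FPKM. The unit is not named in the sources used here. The submitters' processing notes name Bowtie2, HTSeq and hg38, without versions, and the annotation is not given in the sources used here. Of 19225 rows, 27 with dates in place of gene names were left out.

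Each deposited FPKM value was found to equal a whole number of reads over a gene length and a depth. The depth ratio was taken from 121 genes with equal reads, and the depth from 400 genes whose lengths were whole within 0.01 at it for 59.5%, near the 60.8% that pairs without a common factor give. All 17178 genes above 0 gave whole reads, within 1.5 times the rounding of the printed values and at most 4.31e-05 reads from a whole number, and the smallest at a length of at least 150 bases were used. They add up to 89.7% and 89.4% of the depths. A gene's true reads may be a whole multiple, which makes intervals and floors too wide but leaves ratios as they are. Fold changes are log2 ratios of reads plus 0.5 over depths, with the A549-NICD1 depth multiplied by 0.963, the factor from a trimmed mean of log ratios (30% of ratios and 5% of levels at each end). Changes of genes with few reads are understated on it. Genes entered a count when they reached 10 reads in either library. The 95% intervals are Clopper-Pearson for ratios and exact Poisson for levels. They hold counting error alone, because 1 library a condition shows no spread between libraries. Without molecular identifiers PCR copies cannot be told from separate molecules, so the intervals may be too narrow even for counting error.

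The 3′ UTR came from 1 GENCODE 29 protein-coding transcript a gene (APPRIS principal where marked, then the longest 3′ UTR). Gene names matched GENCODE for 18787 of 19198 genes. Members, lists and alternatives were chosen with earlier results of these data known. The lists held older symbols beside current ones. Genes named are the members, Notch genes, from each list the 3 highest in A549-Vector and those beyond 2-fold, and the 3 genes nearest to each member, and others are said to be named after their values were seen or are list members at 0. Some genes that this rule names are not reported here. The method was tested on simulated data. Python 3.11.15, numpy 2.4.6, pandas 2.3.3, scipy 1.17.1 and matplotlib 3.10.9 were used.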

Additional observations from a re-analysis of the deposited data

How the results depend on the processing

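No paired analysis was possible because there was 1 library for each condition. Log2 fold changes kept their direction under all alternatives run for the 9 members. They ran from 0.99 to 1.27 for KLF4, -0.52 to -0.45 for SOX2, -0.74 to -0.38 for POU5F1 and 0.039 to 0.55 for LIN28A, with the lowest size of KLF4, POU5F1 and LIN28A at a pseudocount of 1 FPKM. With that pseudocount 0 members were above 2-fold and 0 lower by more than 1.5-fold. Without scaling, medians of lists shifted by -0.054, to -0.034 for the let-7 biogenesis list, -0.23 for the let-7 host genes and -0.036 for the IGF2BP list. The medians of the pluripotency, let-7 target and relatives lists, near 0 in the first place, then lay below 0, at -0.038, -0.052 and -0.038. Over all genes, 592 above and 308 below 2-fold became 294 and 126 with a pseudocount of 0.1 FPKM, 45 and 7 with 1 FPKM, 1506 and 791 without the filter and 145 and 76 with at least 100 reads summed. Reads at the length nearest to the longest GENCODE transcript, an alternative added after seeing the data, changed no member's count past 2-fold. Such reads add up to 117% of the A549-NICD1 depth and 118% of the A549-Vector depth, which is more than the depths themselves. POU5F1 then had 138 and 82 reads. Depth limits what can be said of LIN28A, NANOG and POU5F1.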

Other observations

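The families of the members were counted by gene name, a choice made after values were seen. Of 17 KLF genes in the files, 14 had at least 10 reads in a library and 2 were above 2-fold, KLF4 and KLF10, where 3.92% of all genes tested were, or 1.11% of those with at least 100 reads summed. KLF10, a zinc finger factor known as an early gene of TGF-beta signaling, was at 5.54 FPKM (855 reads) in A549-Vector and 12.4 FPKM (1911 reads) in A549-NICD1, with a log2 fold change of 1.22 (1.10 to 1.33). KLF7, by contrast, was at 2.26 and 1.43 FPKM with a log2 fold change of -0.61 (-0.76 to -0.45), and the median of the 14 was 0.040.

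Of 19 SOX genes, 16 had at least 10 reads in a library, with a median log2 fold change of -0.026. None of the 16 was beyond 2-fold, where 3.92% of all genes tested were above and 2.04% below. SOX4 was the one at a higher level than SOX2, at 62.4 and 45.6 FPKM (-0.40), and SOX12, of the same subgroup, was at 31.9 and 18.6 FPKM (-0.72). SOX11, also of that subgroup, was higher in A549-NICD1, at 1.68 and 2.24 FPKM with a log2 fold change of 0.47 (0.33 to 0.61). Of 15 POU genes, 10 had at least 10 reads in a library and 1, POU4F2, was above 2-fold, where 3.92% of all genes tested were. POU4F2 had 6 reads in A549-Vector and 19 in A549-NICD1, so it passed the filter only through A549-NICD1. Its log2 fold change was 1.64, and its interval, 0.34 to 3.33, reached below 2-fold. The neural factors POU3F3 (34.1 and 24.2 FPKM, -0.44) and POU4F1 (26.0 and 20.7 FPKM, -0.28) were at higher levels than POU5F1 in each library.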
